A study of Mus musculus with 20 samples.

Results

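Complement and coagulation factors are plasma proteins that the liver makes and secretes, and the transcripts of 37 of them were followed in the livers of male mice. They are the rows of the counts table whose gene symbol is on a list of 37 names, out of 36106 genes in the table, and all 37 were present and passed the filter on low counts that left 16164 genes for testing. The list holds 9 genes of the classical and lectin pathways, 4 of the alternative pathway and its central substrate, 5 of the terminal pathway, 8 clotting factors, 3 genes of the contact system, 4 anticoagulants, and 4 genes of fibrinolysis and cell adhesion. The choice was made by name and not by any measured value.

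Complement is a cascade of proteases that ends in cleavage of C3 and in assembly of the membrane attack complex, a pore built from C5b, C6, C7, C8 and C9. It can be started by antibody through C1 (the classical pathway), by mannose-binding lectins and their proteases (the lectin pathway), or by C3 turnover together with factors B and D (the alternative pathway). Coagulation is a parallel cascade in which factors activate one another until thrombin turns fibrinogen into fibrin. The contact system, with factor XII, prekallikrein and kininogen, starts clotting on charged surfaces and releases bradykinin. Antithrombin, heparin cofactor II and the protein C and protein S pair hold clotting back, and plasmin dissolves the clot. Hepatocytes are the main source of most of these proteins, and several of them are acute phase proteins that rise during inflammation.

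The male mice had lost their testes by orchiectomy, and so most of their testosterone, or had undergone a sham operation. They were then kept in normoxia (Nx) or in intermittent hypoxia (IH), repeated falls in oxygen used to model sleep apnoea, for 2 weeks. Sham-operated mice made up the groups Sham_Nx in normoxia (n = 4) and Sham_IH in intermittent hypoxia (n = 5), and orchiectomized mice the groups ORX_Nx (n = 5) and ORX_IH (n = 5). Each library is the liver of 1 mouse and carries its group and number; Sham_Nx mouse 1 was not analysed here, and the labels give neither strain nor age. The measurement is messenger RNA in whole liver, not protein in plasma, and in such bulk samples fewer cells of a type and less RNA per cell cannot be told apart.

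Estimated counts per library summed to between 29.3 and 69.6 M, and the lowest count of any member other than Cfd was far above the filter minimum of 10, so depth limited only Cfd. Levels within a gene are given as CPM, which are counts per M of library size, after scaling of libraries by the trimmed mean of M-values (TMM), and levels between genes as RPKM, which are CPM per kilobase of transcript. After orchiectomy 6 of 6 male-biased liver genes fell and 6 of 6 female-biased genes rose in normoxia, and the same counts were found in intermittent hypoxia, so the libraries match their surgical labels by these genes. Markers of other tissues were high in some libraries. The summed CPM of 10 skeletal muscle markers was 775 in ORX_IH 1, 455 in ORX_IH 2, 132 in Sham_Nx 2 and 35.4 in Sham_Nx 3, against at most 7.01 in the other libraries. The summed CPM of 11 pancreatic acinar markers was 1315 in Sham_IH 5, 559 in Sham_Nx 5 and 230.2 in ORX_IH 1. The hepatocyte markers in the table summed to between 62594 and 109043 CPM in every library.

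In Sham_Nx the 37 transcripts together took 2.59 ± 0.0654% of the library (SD, n = 4), in Sham_IH 2.98 ± 0.235% (n = 5), with 3.53 ± 0.254% in ORX_Nx (n = 5) and 3.32 ± 0.204% in ORX_IH (n = 5). Every Sham_Nx library, at 2.53 to 2.68%, lay below every library of the other 3 groups, which began at 2.77%. These are shares of counts before scaling. The scaling factors were 0.930 to 0.987 in sham-operated livers and 0.974 to 1.17 in orchiectomized livers. Differences in library composition can therefore enter the share, and their part was not tested. The largest part of that share was C3, the central substrate of complement, which was the most abundant member with a mean level of 2957 RPKM over all libraries and ranked 37 among all genes of the table. Vitronectin (Vtn), a plasma adhesion protein that also blocks the membrane attack complex, followed at 1392 RPKM, and then the kininogen gene Kng1 at 871 RPKM, prothrombin (F2) at 852 RPKM and plasminogen (Plg) at 810.3 RPKM. At the other end stood prekallikrein (Klkb1) at 46.3 RPKM, factor XI (F11) at 25.0 RPKM and protein S (Pros1) at 20.9 RPKM. Factor D (Cfd), made mainly by adipose tissue, had a mean of 2.38 RPKM.

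**Figure D1:**
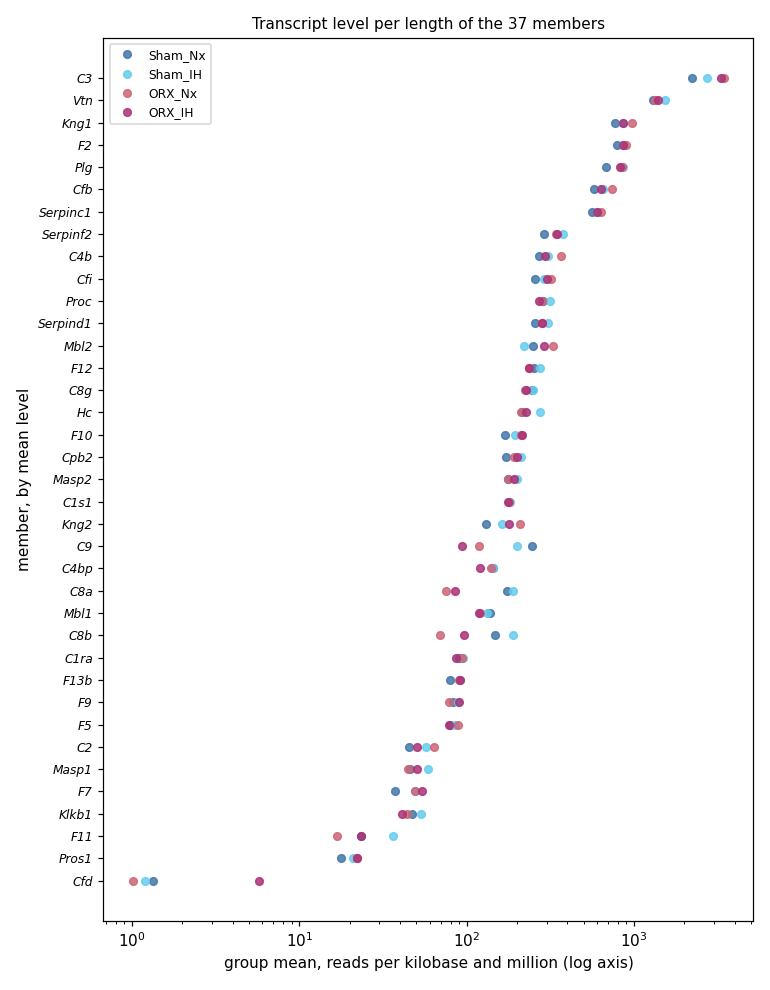
Mean level of each of the 37 members in each of the 4 groups, in RPKM on a log axis, ordered by the mean over all libraries. C3 is highest at a mean of 2957 RPKM and Cfd lowest at 2.38 RPKM; the widest gaps between groups, apart from Cfd, are those of C8a, C8b, C9 and F11.

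Orchiectomy in normoxia changed 9 of the 37 members. C3, factor B (Cfb), factors VII (F7) and X (F10) and the kininogens Kng1 and Kng2 rose, and the membrane attack complex genes C8a, C8b and C9 fell, to levels 2.33-, 2.14- and 2.09-fold lower than after sham operation. A gene was called changed at a Benjamini-Hochberg adjusted p under 0.05 from edgeR's quasi-likelihood F-test, adjusted over all 16164 genes. Log2 fold changes are given ± their standard error (SE), and mean levels ± SD. The 6 that rose and 3 that fell are 24.3% of the members, where 14.3% of all genes tested were called in this comparison (7.88% higher and 6.46% lower). The median log2 fold change of the members was 0.14, with 23 of 37 above 0, against 0.01 for all genes tested. The groups did not overlap for 8 members that were higher and 3 that were lower after orchiectomy, where 5.69% and 6.65% of all genes tested were separated in that way.

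Leaving out Sham_Nx 4 lowered the number of changed members to 4, where 6.95% of all genes tested were called. Leaving out the 4 libraries highest in muscle markers, which keeps only 2 Sham_Nx libraries, lowered it to 1, Kng2 (2.53% of all genes tested). Without scaling factors between libraries 16 members were called higher and 2 lower (88.9% of calls higher, against 66.7%). In that fit 16.9% of all genes tested were called and their median moved to 0.14, so the members' changes are read relative to that shift.

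**Figure D2:**
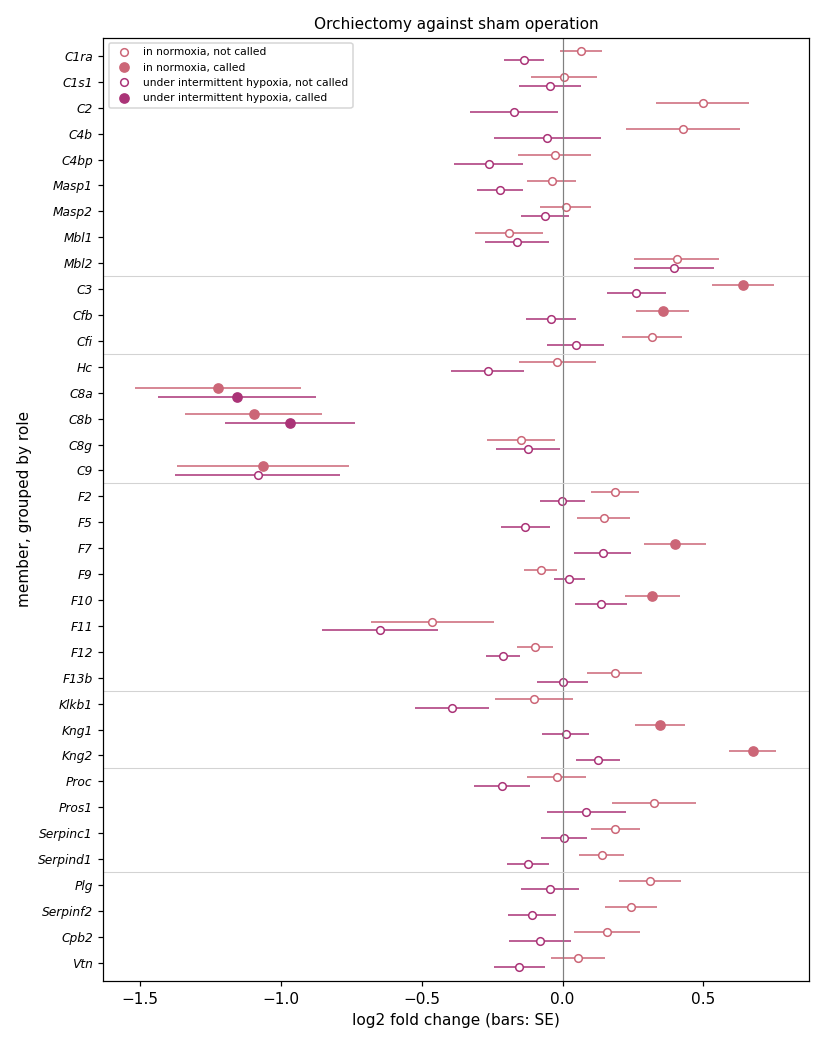
Log2 fold change after orchiectomy, with bars for the standard error, for 36 members grouped by role, in normoxia (ORX_Nx against Sham_Nx) and in intermittent hypoxia (ORX_IH against Sham_IH); Cfd is left out because its standard error exceeds 1. C8a, C8b and C9 lie near -1 in each exposure, while C3 and Kng2 lie above 0.6 in normoxia and at 0.26 ± 0.10 and 0.13 ± 0.08 in intermittent hypoxia.

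Apart from Cfd, the terminal pathway held the largest log2 fold changes after orchiectomy among the 37. C8 is a complex of alpha, beta and gamma chains from separate genes, and C9 polymerizes on it to form the pore. C8a (ENSMUSG00000035031), the alpha chain, measured 654, 543, 479 and 515 CPM in the Sham_Nx libraries and 564, 457, 465, 943 and 546 CPM in the Sham_IH libraries. It measured 173, 153.6, 154.3, 408 and 286 CPM in ORX_Nx and 251, 259, 239, 417 and 169 CPM in ORX_IH. All 10 orchiectomized livers, at 153.6 to 417 CPM, were below all 9 sham-operated livers, at 457 to 943 CPM, and no other member separated the operations completely across both exposures. The log2 fold change was -1.22 ± 0.29 (edgeR adjusted p = 0.0114) in normoxia, a 2.33-fold lower level, and -1.16 ± 0.28 (edgeR adjusted p = 0.0321) in intermittent hypoxia.

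C8b (ENSMUSG00000029656), the beta chain, measured 301, 238, 266 and 255 CPM in Sham_Nx and 85.2, 81.3, 86.9, 168 and 198 CPM in ORX_Nx. Under intermittent hypoxia it measured 355, 291, 299, 424 and 333 CPM after sham operation and 156, 178, 145, 253 and 138.3 CPM after orchiectomy. The operations did not overlap within either exposure. The log2 fold change of C8b was -1.10 ± 0.24 (edgeR adjusted p = 0.00753) in normoxia and -0.97 ± 0.23 (edgeR adjusted p = 0.0286) in intermittent hypoxia.

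C9 (ENSMUSG00000022149) measured 398, 368, 332 and 361 CPM in Sham_Nx and 123, 103, 109, 240.4 and 298 CPM in ORX_Nx, so that every orchiectomized liver was lower in normoxia. Under intermittent hypoxia it measured 296, 208, 248, 438 and 279.7 CPM after sham operation and 154.4, 119, 89.6, 220.3 and 111 CPM after orchiectomy, where ORX_IH 4 lay above the lowest sham liver. C9 fell in normoxia, with a log2 fold change of -1.06 ± 0.31 (edgeR adjusted p = 0.0280). In intermittent hypoxia the value was of the same size, -1.08 ± 0.29 (edgeR adjusted p = 0.0527), but did not pass the threshold in the main fit. There C9 was called lower in 6 of 12 other settings, among them DESeq2 and limma-voom, and in 5 of 19 fits without 1 library. The normoxia call of C9 was lost without scaling factors (edgeR adjusted p = 0.0550), in a fit of only the groups compared, without the libraries high in muscle or in pancreatic markers, and without any of Sham_Nx 2, 3, 4 or 5 or ORX_Nx 1 or 3.

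The gamma chain C8g, a lipocalin that binds the alpha chain, was not called in any comparison. It measured 195 ± 8.39 CPM in Sham_Nx (SD, n = 4), 196 ± 12.1 CPM in Sham_IH (n = 5), 176 ± 36.7 CPM in ORX_Nx (n = 5) and 179.6 ± 19.1 CPM in ORX_IH (n = 5). Its log2 fold change after orchiectomy was -0.15 ± 0.12 in normoxia, with a 95% interval of -0.38 to 0.09, which does not reach the estimates of C8a or C8b. Per length, C8a stood at 0.710 ± 0.108 of C8g in Sham_Nx (SD, n = 4) and 0.759 ± 0.204 in Sham_IH (n = 5). After orchiectomy that ratio was 0.363 ± 0.210 in ORX_Nx (n = 5) and 0.374 ± 0.109 in ORX_IH (n = 5). The ratio of C8b to C8g was 0.598 ± 0.0638 in Sham_Nx and 0.345 ± 0.234 in ORX_Nx. These groups overlapped, at 0.543 to 0.685 and 0.160 to 0.721. Under intermittent hypoxia the C8b ratio was 0.763 ± 0.0784 in Sham_IH and 0.426 ± 0.0937 in ORX_IH. Hc, the mouse gene for C5, whose cleavage starts pore assembly, measured 869 ± 21.7 CPM in Sham_Nx and 858 ± 102 CPM in ORX_Nx and was not called (log2 fold change -0.02 ± 0.14, edgeR adjusted p = 0.946).

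C8a, C8b and C9 also varied together between mice of the same group. After subtraction of group means, Pearson's r of log2 CPM over the 19 libraries was 0.93 between C8b and C9, 0.89 between C8a and C8b and 0.87 between C8a and C9; these are descriptions, since the libraries share depth and scaling. Within ORX_Nx the highest C8a, C8b and C9 values came from ORX_Nx 4 and ORX_Nx 5. Those libraries also had the highest summed CPM of 13 acute phase genes, 23347 and 19242, against 10964 to 11904 in the other ORX_Nx livers. Without that pair of libraries the log2 fold change in normoxia was -1.77 for C8a, -1.65 for C8b and -1.71 for C9, so the fall did not rest on them.

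The promoters of the members with the largest changes are printed so that the windows of the 3 genes that fell can be read beside those of C3 and Kng2, which rose. Each is the 250 bases before the annotated start, from RefSeq on GRCm38.p6, read 5′ to 3′ on the gene's strand. Capitals mark a match, on either strand, to any of 5 short motifs that were searched: TTCNNNGAA (STAT factors, activated by growth hormone and cytokines), AGAACA (the core bound by androgen and glucocorticoid receptors), TTGCNNAA (C/EBP factors), GTTAAT (HNF1, a hepatocyte factor) and GGGNNNTCC (NF-kB). C8a and C8b are neighbours on chromosome 4 and are read from opposite strands.
C8a, chr4:104876399-104876648, minus strand: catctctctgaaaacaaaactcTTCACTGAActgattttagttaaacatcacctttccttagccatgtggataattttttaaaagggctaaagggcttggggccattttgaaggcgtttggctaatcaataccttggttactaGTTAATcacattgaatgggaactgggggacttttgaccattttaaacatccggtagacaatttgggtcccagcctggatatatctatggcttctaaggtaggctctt
C8b, chr4:104766067-104766316, plus strand: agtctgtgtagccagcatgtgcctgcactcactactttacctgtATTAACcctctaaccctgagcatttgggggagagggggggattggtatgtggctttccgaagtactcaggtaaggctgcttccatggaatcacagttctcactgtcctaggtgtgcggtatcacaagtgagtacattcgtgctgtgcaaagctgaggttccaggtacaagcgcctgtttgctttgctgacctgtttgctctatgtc
C9, chr15:6445096-6445345, plus strand: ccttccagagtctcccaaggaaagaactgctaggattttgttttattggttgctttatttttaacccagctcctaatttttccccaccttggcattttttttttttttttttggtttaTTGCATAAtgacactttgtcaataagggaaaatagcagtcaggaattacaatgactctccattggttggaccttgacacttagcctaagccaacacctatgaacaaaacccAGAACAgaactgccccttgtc
C3, chr17:57228137-57228386, minus strand: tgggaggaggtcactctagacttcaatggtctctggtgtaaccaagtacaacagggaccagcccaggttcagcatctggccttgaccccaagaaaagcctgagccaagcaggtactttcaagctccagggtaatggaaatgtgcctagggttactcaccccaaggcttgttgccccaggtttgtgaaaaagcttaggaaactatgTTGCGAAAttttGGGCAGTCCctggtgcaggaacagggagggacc
Kng2, chr16:23029102-23029351, minus strand: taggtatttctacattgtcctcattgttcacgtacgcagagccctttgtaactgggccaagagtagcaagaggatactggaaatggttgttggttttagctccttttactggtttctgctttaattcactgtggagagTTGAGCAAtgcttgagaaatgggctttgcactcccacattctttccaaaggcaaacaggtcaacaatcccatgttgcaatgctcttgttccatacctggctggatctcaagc

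In the C8a window a TTCNNNGAA match begins 228 bases and a GTTAAT match 107 bases before the start, and the C8b window holds an HNF1 match alone. C9 has a TTGCNNAA and an AGAACA match, C3 a TTGCNNAA and a GGGNNNTCC match, and Kng2 a TTGCNNAA match. No motif of the 5 was found in all 3 windows of the falling genes. The 29 members with a promoter in the table had 31 windows. AGAACA was found in 10 of these windows (32.3%, against 16.1% of 32841 promoters of the same length). GTTAAT was found in 7 (22.6%, against 6.43%) and TTGCNNAA in 7 (22.6%, against 9.57%). TTCNNNGAA was found in 4 windows (12.9%, against 7.02%) and GGGNNNTCC in 4 (12.9%, against 15.2%). A match says that these letters are present, not that a factor binds.

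C3 and factor B, the substrate and the protease of the alternative pathway convertase, rose in normoxia. C3 (ENSMUSG00000024164) measured 8853, 8176, 9333 and 8345 CPM in Sham_Nx, 10349, 11038, 9967, 11670.2 and 10743 CPM in Sham_IH, 13054, 12707, 13111, 15213 and 13503 CPM in ORX_Nx and 14356, 13346, 11257, 12791 and 12738 CPM in ORX_IH. The Sham_Nx livers were below every other liver, and the ORX_Nx livers above every sham liver. The log2 fold change of C3 after orchiectomy was 0.64 ± 0.11 (edgeR adjusted p = 0.00134) in normoxia, 1.56-fold higher, and 0.26 ± 0.10 (edgeR adjusted p = 0.193) in intermittent hypoxia, where it did not pass the threshold.

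Cfb (ENSMUSG00000090231) measured 868, 919.8, 848 and 891 CPM in Sham_Nx and 1126, 1084, 1068, 1361 and 999.9 CPM in ORX_Nx, with no overlap. Under intermittent hypoxia it measured 952, 974, 925, 1199 and 980.4 CPM after sham operation and 949, 972, 953, 1091 and 927 CPM after orchiectomy, and these groups overlapped. Its log2 fold change was 0.36 ± 0.09 (edgeR adjusted p = 0.0196) in normoxia and -0.04 ± 0.09 (edgeR adjusted p = 0.859) in intermittent hypoxia. The normoxia call was lost without Sham_Nx 2 or Sham_Nx 4, in a fit of only the groups compared, and without the libraries high in muscle or in pancreatic markers. Factor I (Cfi), the protease that inactivates C3b, did not pass in normoxia in the main edgeR fit, with TMM scaling and no term but group (log2 fold change 0.32 ± 0.11, edgeR adjusted p = 0.0540). Its groups did not overlap (459 ± 29.3 CPM in Sham_Nx and 572 ± 65.2 CPM in ORX_Nx). DESeq2 called it, and so did edgeR without scaling factors or with the mouse number added to the fit. Cfd was at 0 to 2.31 CPM in 18 libraries and at 20.1 CPM in ORX_IH 1. That liver also had the highest summed CPM of 6 adipocyte markers, 67.8, a list that itself contains Cfd. No fold change of Cfd is given, since 1 library sets it.

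None of the 9 classical and lectin pathway members was called in any comparison by the main edgeR fit. After orchiectomy in normoxia, C2 and Mbl2 were called higher by DESeq2 and by edgeR without scaling factors. For C2 edgeR also gave a call in a fit of only the groups compared and with the mouse number added to the fit. C2, the protease that forms the classical convertase and the neighbour of Cfb, came closest after orchiectomy in normoxia. It measured 73.9, 70.8, 64.2 and 67.4 CPM in Sham_Nx and 88.6, 89.4, 84.0, 97.3 and 129 CPM in ORX_Nx, with no overlap (log2 fold change 0.50 ± 0.17, edgeR adjusted p = 0.0511). Mannose-binding lectin Mbl2 measured 225 ± 30.7 CPM in Sham_Nx and 298 ± 59.4 CPM in ORX_Nx (log2 fold change 0.40 ± 0.15, edgeR adjusted p = 0.0789), while its paralog Mbl1 measured 147 ± 17.9 and 129 ± 18.4 CPM (log2 fold change -0.19 ± 0.12, edgeR adjusted p = 0.310). C4b, the most abundant of the group at 311 RPKM, ranged from 1020 to 1214 CPM in Sham_Nx and from 1207 to 1814 CPM in ORX_Nx (log2 fold change 0.43 ± 0.20, edgeR adjusted p = 0.163). The proteases C1ra and C1s1 of the C1 complex had log2 fold changes of 0.06 ± 0.08 and 0.01 ± 0.12, with C1ra at 91.3 RPKM. C4bp, the inhibitor that binds C4b, stood at -0.03 ± 0.13. The lectin pathway proteases Masp1, the least abundant of the group at 50.2 RPKM, and Masp2 stood at -0.04 ± 0.09 and 0.01 ± 0.09. C4b, C1ra and C1s1 each have a near-identical copy in the mouse genome, so the split of reads between copies is uncertain.

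Among the 8 clotting factors 2 rose after orchiectomy in normoxia by edgeR. In intermittent hypoxia the main edgeR fit called none, and DESeq2 called F11 and F12 lower. There edgeR called F11 lower with the mouse number added to the fit, and F10 higher without scaling factors. F7 (ENSMUSG00000031443), the factor that starts clotting together with tissue factor, measured 66.4, 60.3, 60.8 and 63.3 CPM in Sham_Nx and 81.9, 99.9, 86.0, 80.2 and 65.3 CPM in ORX_Nx. The groups overlapped, because ORX_Nx 5 lay within the sham range, and the log2 fold change was 0.40 ± 0.11 (edgeR adjusted p = 0.0220). F10 (ENSMUSG00000031444), which cleaves prothrombin, measured 330.2, 313, 318 and 307 CPM in Sham_Nx and 366, 441, 417, 414 and 339.5 CPM in ORX_Nx, with no overlap and a log2 fold change of 0.32 ± 0.10 (edgeR adjusted p = 0.0373). In intermittent hypoxia the log2 fold changes were 0.14 ± 0.10 for F7 and 0.14 ± 0.09 for F10. F7 and F10 are neighbouring genes. The call of F7 was lost when any of Sham_Nx 3, 4 or 5 was left out, and that of F10 when any of the 4 Sham_Nx livers or any of ORX_Nx 2, 3 or 4 was left out. Both calls were also lost in a fit of only the groups compared and without the libraries high in muscle or in pancreatic markers. That of F10 was lost as well without the filter on low counts and with only the libraries numbered 1 to 16 in the labels.

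The remaining clotting factors were not called by the main edgeR fit, and without scaling factors F2, F5 and F13b were called higher in normoxia. F2, the most abundant at 852 RPKM, had a log2 fold change after orchiectomy in normoxia of 0.19 ± 0.08 (edgeR adjusted p = 0.145), and F5, the cofactor of factor X, of 0.15 ± 0.09. F9 stood at -0.08 ± 0.06, F12 at -0.10 ± 0.06 and F13b, the carrier subunit of the fibrin-crosslinking factor XIII, at 0.18 ± 0.10. F11, the least abundant of the group, measured 41.6 ± 5.43 CPM in Sham_Nx (SD, n = 4), 65.4 ± 16.5 CPM in Sham_IH (n = 5), 30.3 ± 6.38 CPM in ORX_Nx (n = 5) and 41.7 ± 15.1 CPM in ORX_IH (n = 5). Its log2 fold change after orchiectomy was -0.46 ± 0.22 (edgeR adjusted p = 0.160) in normoxia and -0.65 ± 0.21 (edgeR adjusted p = 0.1005) in intermittent hypoxia. F12 in intermittent hypoxia measured 452, 453, 467, 441 and 437 CPM after sham operation and 362, 413, 369, 417 and 381 CPM after orchiectomy, with no overlap, and came close to the threshold (log2 fold change -0.21 ± 0.06, edgeR adjusted p = 0.0652).

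In the contact system the kininogens rose and prekallikrein did not. Kng2 (ENSMUSG00000060459) had the smallest p of all members. It measured 163, 167, 139.5 and 166 CPM in Sham_Nx, 172, 198, 185, 227 and 214 CPM in Sham_IH, 243, 263, 249.8, 283 and 229.9 CPM in ORX_Nx and 226, 229, 218, 205 and 207 CPM in ORX_IH. The Sham_Nx livers were below every other liver and the ORX_Nx livers above every other liver, by a narrow margin from ORX_IH. The log2 fold change after orchiectomy was 0.68 ± 0.08 (edgeR adjusted p = 5.27e-05) in normoxia, 1.60-fold higher, and 0.13 ± 0.08 (edgeR adjusted p = 0.432) in intermittent hypoxia.

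Kng1 (ENSMUSG00000022875) measured 1358, 1367, 1252 and 1359 CPM in Sham_Nx and 1527, 1828, 1595, 1929 and 1597 CPM in ORX_Nx, with no overlap and a log2 fold change of 0.35 ± 0.09 (edgeR adjusted p = 0.0171). That call was lost without Sham_Nx 4 and in the same other settings as that of Cfb. Kng1 and Kng2 are adjacent near-identical genes, so that reads can be split between them in different ways. The sum of the pair was 1493 ± 67.9 CPM in Sham_Nx (SD, n = 4), 1688 ± 146 in Sham_IH (n = 5), 1949 ± 192 in ORX_Nx (n = 5) and 1718 ± 104 in ORX_IH (n = 5). Kng2 made up 10.6 ± 0.407% of that sum in Sham_Nx and 13.0 ± 0.538% in ORX_Nx. Klkb1, the prekallikrein gene, measured 238 ± 27.0 CPM in Sham_Nx and 222 ± 41.0 CPM in ORX_Nx (log2 fold change -0.10 ± 0.14, edgeR adjusted p = 0.671). In intermittent hypoxia Klkb1 measured 261, 256, 256, 326 and 260.2 CPM after sham operation and 164, 202, 243, 237 and 189 CPM after orchiectomy, with no overlap, and was not called (log2 fold change -0.39 ± 0.13, edgeR adjusted p = 0.124).

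**Figure D3:**
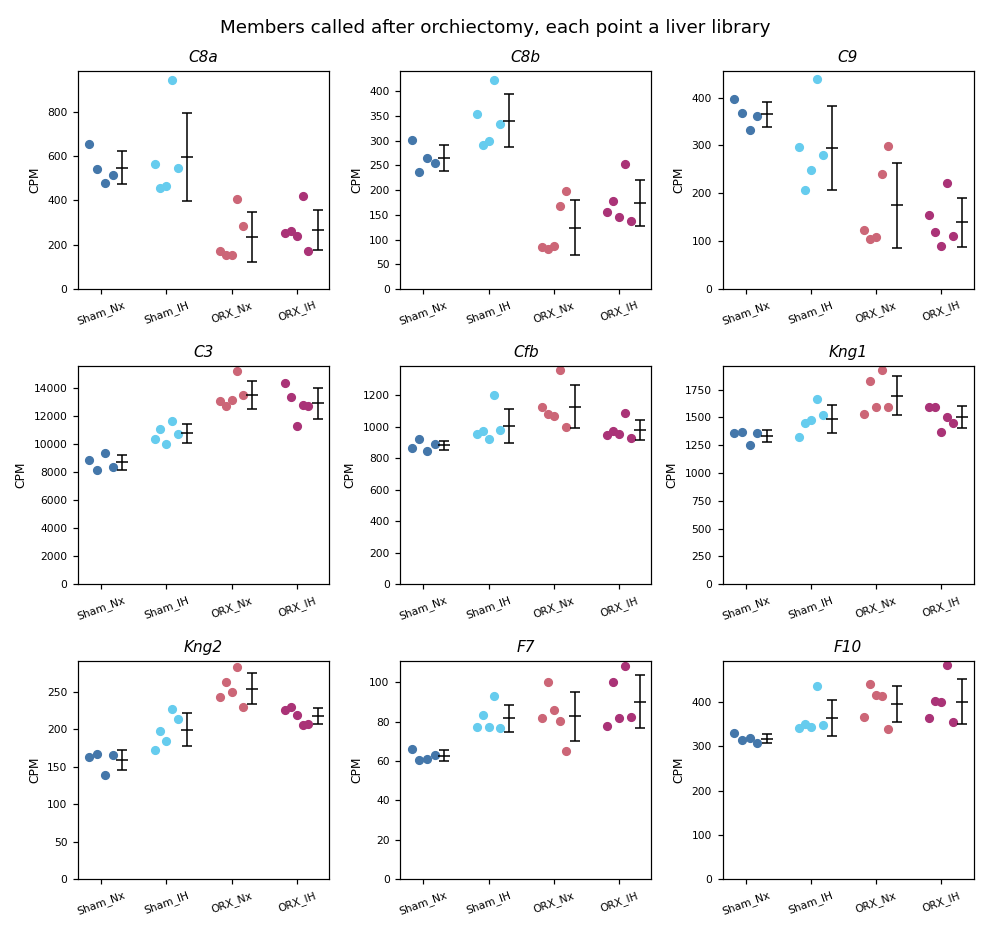
Level in CPM in each liver library of the 9 members called changed after orchiectomy, 1 panel per gene with the vertical axis from 0, and group means with SD bars (n = 4 in Sham_Nx, 5 in each other group). In the C8a panel all 10 orchiectomized livers lie below all 9 sham-operated livers; in the Kng2 panel the ORX_Nx livers lie above every other liver.

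No anticoagulant and no gene of fibrinolysis was called after orchiectomy by the main edgeR fit. In normoxia DESeq2 called Plg and Serpinf2 higher, and without scaling factors Serpinc1, Serpind1, Plg and Serpinf2 were called higher. Plg was also called higher by edgeR with the mouse number added to the fit. The 4 anticoagulants had log2 fold changes in normoxia of 0.19 ± 0.09 for antithrombin (Serpinc1, the most abundant at 602 RPKM), 0.14 ± 0.08 for heparin cofactor II (Serpind1), -0.02 ± 0.10 for protein C (Proc) and 0.32 ± 0.15 for protein S (Pros1). Plg measured 1741 ± 95.6 CPM in Sham_Nx and 2161 ± 206 CPM in ORX_Nx (log2 fold change 0.31 ± 0.11, edgeR adjusted p = 0.0639). Serpinf2, the plasmin inhibitor alpha-2-antiplasmin, measured 483, 466, 543 and 517 CPM in Sham_Nx and 558, 639, 574, 612 and 592 CPM in ORX_Nx, with no overlap (log2 fold change 0.24 ± 0.09, edgeR adjusted p = 0.0795). Cpb2, which protects fibrin from plasmin, stood at 0.16 ± 0.12 and Vtn at 0.05 ± 0.10. Over the 27 members other than Cfd that passed in none of the comparisons, log2 fold changes in normoxia lay between -0.46 and 0.50, and no 95% interval reached beyond -0.89 or 0.83.

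Orchiectomy under intermittent hypoxia lowered 2 members, C8a and C8b, and raised none by edgeR with TMM scaling. These are 5.41% of the members, where 2.88% of all genes tested were called (1.31% higher and 1.57% lower). The median log2 fold change was -0.08, with 12 of 37 above 0, against 0.00 for all genes tested. Without scaling factors 3 members were called higher (C3, F10 and Mbl2) and the same 2 lower, with 22 of 37 above 0 and a median of 0.05. In that fit 6.01% of all genes tested were called and their median moved to 0.13. DESeq2 called C3 higher and C8a, C8b, C9, F11 and F12 lower, against 5.36% of all genes. The groups did not overlap for 5 members, all lower after orchiectomy (C8a, C8b, F12, Klkb1 and Proc), where 5.85% of all genes tested were separated and 3.07% in that direction. Sham_IH 4 had the highest level of its group for 33 of the 37 members, and ORX_IH 4 for 27 of 37. Without Sham_IH 4 neither gene was called, with log2 fold changes of -0.91 for C8a (edgeR adjusted p = 0.103) and -0.86 for C8b (edgeR adjusted p = 0.0879), and the members' median was 0.00. The calls of C8a and C8b were also lost without Sham_IH 1, Sham_IH 5, ORX_IH 1, ORX_IH 2, ORX_IH 3 or ORX_IH 5. Without ORX_IH 4, 7 members were called, all lower (C1ra, C8a, C8b, C9, F11, F12 and Masp1), where 4.11% of all genes tested were called.

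Under intermittent hypoxia after sham operation most members had slightly higher values, but none was called. By edgeR 0 members passed, where 0.303% of all genes tested were called; 12 members (32.4%) had an unadjusted p under 0.05, against 13.1% of all genes tested. DESeq2 called 6 (C3, F7, Kng2, Masp1, Serpind1 and Serpinf2, all higher), against 2.46% of all genes, and limma-voom called 0. Leaving out ORX_IH 4, which is in neither of these groups, added a call of Masp1. The median log2 fold change was 0.19, with 33 of 37 above 0, against 0.00 for all genes tested. In 19 members every Sham_IH liver exceeded every Sham_Nx liver, where 8.51% of all genes tested were separated, 4.31% in that direction and 4.21% in the other, and in no member was the order reversed. This comparison and that of orchiectomy in normoxia share the Sham_Nx livers, so members higher in each are not independent. Masp1 measured 137, 160.3, 149.7 and 150.3 CPM in Sham_Nx and 192, 183, 191, 212 and 178 CPM in Sham_IH (log2 fold change 0.36 ± 0.09, edgeR adjusted p = 0.0765). Serpinf2 measured 649.6, 641, 658, 728 and 575 CPM in Sham_IH, above all its Sham_Nx values (log2 fold change 0.37 ± 0.09, edgeR adjusted p = 0.0781). Kng2 followed at 0.33 ± 0.08 (edgeR adjusted p = 0.0886) and F7 at 0.38 ± 0.11 (edgeR adjusted p = 0.130). F11 had the largest value, 0.65 ± 0.22 (edgeR adjusted p = 0.194), with 39.5, 48.3, 43.3 and 35.5 CPM in Sham_Nx and 63.9, 56.4, 61.6, 93.5 and 51.4 CPM in Sham_IH.

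All 8 clotting factors, 3 contact system genes, 4 anticoagulants and 4 genes of fibrinolysis and adhesion were above 0 in this comparison, with role medians of 0.16, 0.19, 0.18 and 0.31 on the log2 scale. Below 0 were Mbl1, Mbl2, Cfd and C9. C9 stood at -0.31 ± 0.31, while C8a and C8b stood at 0.12 ± 0.29 and 0.36 ± 0.24. Without Sham_IH 4 the members' median was 0.11, with 30 of 37 above 0. The hepatocyte markers in the table also summed higher in this group, to 90998 to 99215 CPM in Sham_IH against 74089 to 86583 CPM in Sham_Nx, and the acute phase genes to 11098 to 15131 CPM against 9459 to 10557 CPM; their part in the members' higher values was not tested.

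**Figure D4:**
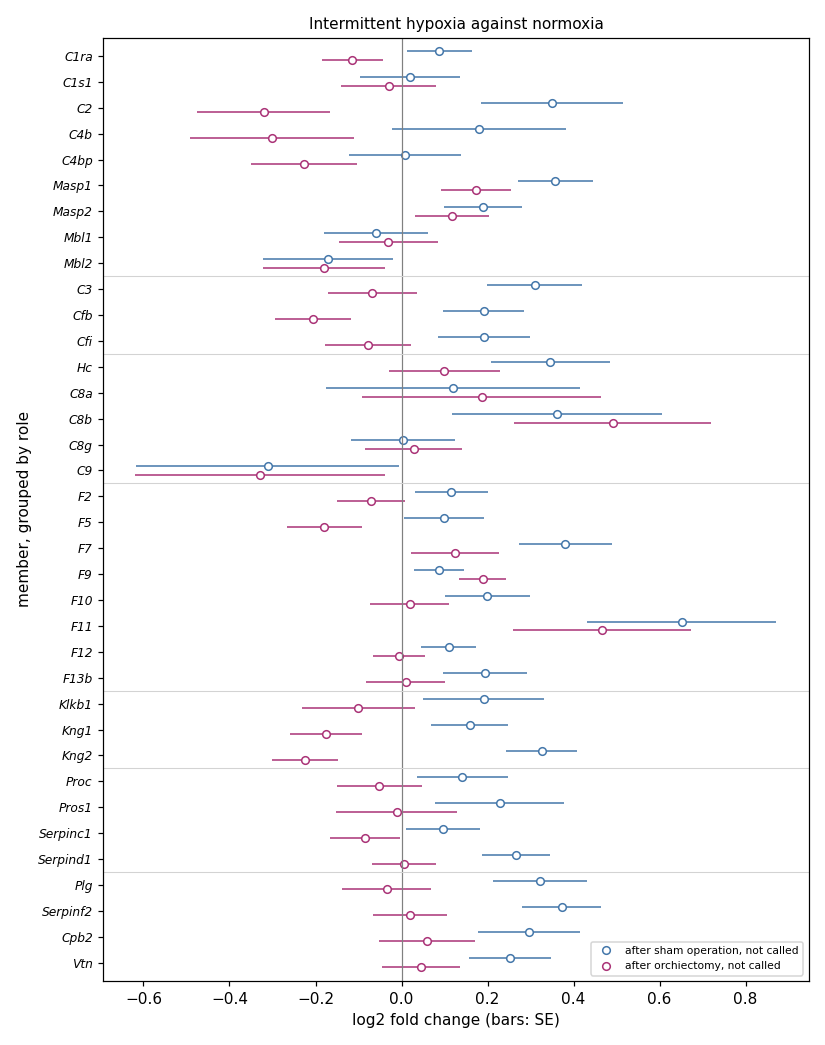
Log2 fold change under intermittent hypoxia, with bars for the standard error, for 36 members grouped by role, after sham operation (Sham_IH against Sham_Nx) and after orchiectomy (ORX_IH against ORX_Nx); Cfd is left out. After sham operation 33 of the 37 members lie above 0, and after orchiectomy 16 of 37; no member was called in either comparison.

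Intermittent hypoxia after orchiectomy changed no member by edgeR, where 0.0742% of all genes tested were called (0.0186% higher and 0.0557% lower). At an unadjusted p under 0.05 there were 6 members (16.2%), near the 17.1% of all genes tested. DESeq2 called 1 (F9, higher), against 4.37% of all genes, and limma-voom called 0. The median was -0.03, with 16 of 37 above 0. Kng2 was the only member whose groups did not overlap, at 254 ± 20.5 CPM in ORX_Nx (SD, n = 5) and 217 ± 10.7 CPM in ORX_IH (n = 5), where 2.3% of all genes tested were separated, 1.18% higher and 1.12% lower (log2 fold change -0.22 ± 0.08, edgeR adjusted p = 0.143). F9, the factor lacking in haemophilia B, measured 196, 210.3, 185, 222 and 191 CPM in ORX_Nx and 242, 227, 216, 232 and 228 CPM in ORX_IH (log2 fold change 0.19 ± 0.06, edgeR adjusted p = 0.102). C8b measured higher in ORX_IH, with a log2 fold change of 0.49 ± 0.23 (edgeR adjusted p = 0.282); without ORX_Nx 4 and ORX_Nx 5 it was called.

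Whether the response to orchiectomy differed between exposures was tested by the interaction term. By edgeR 0 members and 0% of all genes tested passed; 9 members (24.3%) had an unadjusted p under 0.05, against 6.34% of all genes tested. DESeq2 called 1 (Kng2), against 0.384% of all genes, and limma-voom called 0. The term was below 0 for 31 of 37 members, with a median of -0.20 against -0.02 for all genes tested. Kng2 had the smallest p, with a term of -0.55 ± 0.11 (edgeR adjusted p = 0.224). Apart from Cfd the largest term was that of C2, -0.67 ± 0.23 (edgeR adjusted p = 0.680), and Cfb stood at -0.40 ± 0.13 (edgeR adjusted p = 0.657). For C8a, C8b and C9 the term was 0.07 ± 0.40, 0.13 ± 0.33 and -0.02 ± 0.42, with 95% intervals of -0.73 to 0.86, -0.52 to 0.78 and -0.84 to 0.81. C3, Cfb, F7, F10, Kng1 and Kng2 passed in normoxia alone by the main edgeR fit. Under intermittent hypoxia DESeq2 called C3, and edgeR without scaling factors called C3 and F10. The main edgeR fit detected no difference between exposures for any of these genes, nor was its absence shown. Only for Kng2, and only by DESeq2, was such a difference called.

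**Figure D5:**
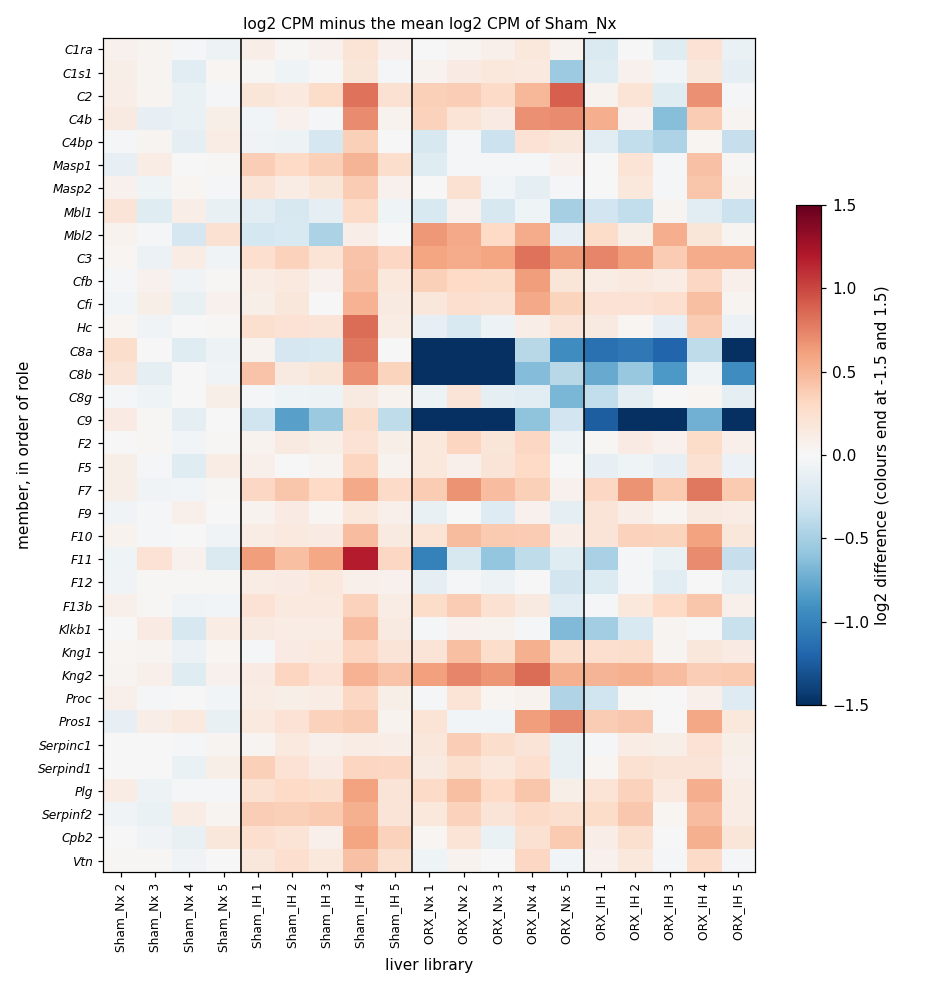
Log2 CPM of 36 members in each of the 19 liver libraries, minus the mean log2 CPM of Sham_Nx, in order of role, with colours ending at -1.5 and 1.5; Cfd is left out. C8a, C8b and C9 form the band of low values across the orchiectomized livers, and Sham_IH 4 is the sham library with the most raised members, the highest of its group in 33 of 37.

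Other genes of the same pathways were counted apart. Of 28 further complement genes 23 were tested, and 6 rose and 2 fell after orchiectomy in normoxia (all genes tested: 7.88% and 6.46%). C6, which joins the membrane attack complex before C7, C8 and C9, ranged from 264 to 283 CPM in Sham_Nx, 186 to 301 in Sham_IH, 21.6 to 85.6 in ORX_Nx and 24.6 to 70.5 in ORX_IH, with no overlap between operations. Its log2 fold change was -2.67 ± 0.36 (edgeR adjusted p = 0.000114) in normoxia and -2.52 ± 0.34 (edgeR adjusted p = 0.000272) in intermittent hypoxia, larger estimates than those of C8a, C8b and C9, although the difference between genes was not tested. The other gene that fell was C1rl, a C1r-like protease, at -0.22 ± 0.07. Those that rose were the C1q chains C1qa at 1.09 ± 0.28, C1qb at 1.07 ± 0.28 and C1qc at 1.04 ± 0.29, properdin (Cfp) at 1.06 ± 0.31, the complement receptor Vsig4 at 0.93 ± 0.29 and the regulator Cr1l at 0.24 ± 0.06. C1q chains and Vsig4 are products of macrophages, and 9 of 9 Kupffer cell and macrophage markers rose in the same comparison, from 160 to 262 summed CPM in Sham_Nx to 219 to 937 in ORX_Nx; C1qa and Vsig4 are themselves on that list.

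Of 32 further clotting, anticoagulant and fibrinolysis genes 30 were tested. After orchiectomy in normoxia 4 rose and 5 fell (all genes tested: 7.88% and 6.46%). The fibrinogen chains Fgb and Fgg rose by a log2 fold change of 0.46 ± 0.13 and 0.40 ± 0.13, and the proteases Hgfac and Habp2 by 0.47 ± 0.13 and 0.31 ± 0.07. Serpine2, a thrombin inhibitor, fell most, with -1.81 ± 0.23 (edgeR adjusted p = 5.5e-05) in normoxia and -1.17 ± 0.21 (edgeR adjusted p = 0.00437) in intermittent hypoxia. The thrombin receptor F2r fell in each exposure (-0.53 ± 0.15 and -0.56 ± 0.14). Tfpi2, S100a10, a plasminogen-binding protein, and Vkorc1l1, a vitamin K reductase, also fell in normoxia, with log2 fold changes of -0.24 ± 0.07, -0.64 ± 0.17 and -0.21 ± 0.06. In intermittent hypoxia C6, Serpine2 and F2r were the only genes of these lists called after orchiectomy. Tfpi2, an inhibitor of plasmin and other proteases, was also the only gene of these lists called under intermittent hypoxia after sham operation, at -0.40 ± 0.07 (edgeR adjusted p = 0.0327).

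Acute phase genes rose in the same comparison as the members that rose. Of 13 such genes 12 rose after orchiectomy in normoxia and 1 in intermittent hypoxia, and their sum was 9459 to 10557 CPM in Sham_Nx and 10964 to 23347 CPM in ORX_Nx. Fgb is on that list, and the part of an acute phase response in the members' rise was not tested. Within ORX_Nx, the liver ORX_Nx 4 had the highest acute phase sum, 23347 CPM. That liver also had the highest C3, Cfb, Kng1 and Kng2 of its group, but not the highest F7 or F10. The liver ORX_Nx 5 followed with an acute phase sum of 19242 CPM. It also had the lowest Cfb, F7, F10 and Kng2 of its group, but not the lowest C3 or Kng1. Without ORX_Nx 4 and ORX_Nx 5, which had the highest sums, 9 members were called higher and 3 lower in normoxia, against 9.03% of all genes tested. The log2 fold changes were then 0.58 for C3 and 0.66 for Kng2. The authors' deposited table gives 1 F-statistic and q-value per gene, for any difference among the groups, so it names no single comparison. Its genes include many below the filter used here, which all 37 members passed, so the shares are not alike. There, 1450 of 36013 genes had a q-value under 0.05, and so did 7 of the 37 members. They were C3 (q = 0.000282), Kng2 (q = 0.00158), C8b (q = 0.00693), C8a (q = 0.0181), Masp1 (q = 0.0331), C9 (q = 0.0364) and F11 (q = 0.0415) in the authors' deposited table.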

How the data were processed

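Poly(A) RNA of frozen liver was sequenced from strand-specific libraries, per the labels' protocols. Per the submitters' processing notes the tools were bcl2fastq 2.20, fastp 0.23.2, FastQC 0.11.9, MultiQC 1.12 and kallisto 0.46.1, with genome build GRCm39. The authors deposited estimated counts per gene, of which 27.5% were not whole (tolerance 1e-06); these expected counts were rounded to whole numbers. The authors also deposited a log2 expression table with an F-statistic (a score), a p-value and a q-value per gene, whose normalization was not stated in the sources used here.

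Genes were kept by filterByExpr (minimum count 10), libraries scaled by TMM, and a quasi-likelihood model of all 4 groups fitted with edgeR 4.0.16 in R 4.3.3. P-values of 5 contrasts were adjusted over all 16164 genes (Benjamini-Hochberg), and the standard error was the fold change divided by the root of F. The 95% intervals are normal approximations from that standard error. They are somewhat narrower than the F-test would give. DESeq2 1.42.0, limma 3.58.1, other scalings, models and left-out libraries were alternatives. RPKM used the gene lengths in the deposited table. The code was tested on simulated data. Kallisto can split reads between near-identical genes.

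Every member is described; values per library are given for members called in at least 1 contrast, and for others where the groups did not overlap or the p was near the threshold, which were picked after their values were seen. The members, the other gene lists and the tests were chosen with earlier results of these data known. Replicate libraries differed by more than sampling noise (chi-square per degree of freedom 20.8 to 199 over 36 pairs), so each counted once.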

Additional observations from a re-analysis of the deposited data

Results flagged for a closer look

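Libraries were compared within each group by the gap between the highest or lowest library and its nearest neighbour, as a share of the group's range. Over 148 such sets (37 genes in 4 groups) 21 stood out (14.2%), where chance gives about 1 in 20. They are not independent, since genes of 1 liver move together.

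Sham_IH 4 was the high library for 12 genes: C2 at 121 CPM, C4b at 1813, Mbl1 at 178, Cfb at 1199, Cfi at 658, Hc at 1550.4, C8a at 943, F5 at 723, F10 at 436, Klkb1 at 326, Proc at 417 and Plg at 2632 CPM. Hc, for example, was at 938 to 1028 CPM in the other Sham_IH livers, and C4b at 1080.1 to 1157 CPM. ORX_IH 4 was the high library for Cfb at 1091 CPM, F5 at 674 CPM and F11 at 67.5 CPM.

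ORX_Nx 5 was the low library for C1s1 at 277 CPM and Klkb1 at 149.5 CPM. Sham_Nx 4 was the low library for Kng1 at 1252 CPM and Kng2 at 139.5 CPM. Cfd was at 20.1 CPM in ORX_IH 1 and at no more than 0.335 CPM in the other ORX_IH livers. F12 in Sham_Nx 2 stood at 403 CPM below a tight group of 421 to 422 CPM. What sets these livers apart was not tested.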

How the results depend on the processing

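None of the members' changes with an adjusted p under 0.1 reversed direction, but smaller ones did: without scaling factors 30 of 37 members were above 0 after orchiectomy in normoxia, against 23, and 22 in intermittent hypoxia, against 12 (19 without Sham_IH 4). In the comparison of orchiectomy in normoxia 9 members changed; the count was 18 without scaling factors, 14 with DESeq2, 5 in a fit of only the groups compared, 1 without the 4 libraries highest in muscle markers and 4 without the 3 highest in pancreatic markers, and leaving out each library gave 4 to 13 (lowest without Sham_Nx 4, highest without ORX_Nx 5). In intermittent hypoxia 2 members changed, where 2.88% of all genes were called. The count was 5 without scaling factors (6.01% of all genes), 6 with DESeq2 (5.36%) and 4 with the replicate block (2.14%). It was 5 without the 2 libraries highest in acute phase markers (5.58%). With limma-voom (2.23%), with limma on the authors' log2 values (2.53%) and in a fit of only the groups compared (3.95%) it was 3, adding C9. No member was called without the muscle-high libraries (0.641%), without the pancreatic-high libraries (0.974%) or with only the libraries numbered 1 to 16 (2.11%). Leaving out each library gave 0 to 7. Intermittent hypoxia after sham operation had 0 changed members (0.303% of all genes). DESeq2 gave 6 (2.46%) and only the groups compared 3 (F7, Masp1 and Serpinf2, against 3.19%). The fit without the acute-phase-high libraries gave 3 (Kng2, Masp1 and Serpind1, against 1.87%), and leaving out each library 0 to 1. Intermittent hypoxia after orchiectomy had 0. DESeq2 gave 1 (F9, against 4.37% of all genes) and the fit without the acute-phase-high libraries 1 (C8b, against 0.245%). The interaction had 0, and 1 (Kng2) with DESeq2, where 0.384% of all genes were called. The last 4 sets of left-out libraries were chosen after seeing the data. Kng2 in normoxia kept its call in all 19 fits without 1 library and all 12 other alternatives; C3, C8a and C8b lost theirs only without the muscle-high libraries, where their log2 fold changes were 0.60, -1.09 and -1.08. Same-numbered mice deviated together no more than other pairs by median r (0.004 over 27 pairs, against 0.005 over 108 pairs of other numbers). The r ranged from -0.197 to 0.395 (5 pairs over 0.1) and from -0.276 to 0.346 (16 pairs over 0.1). No pairing by number was seen, but r does not show how the mice were matched. The replicate block, which adds the mouse number to the fit, gave 12 changed members in normoxia (11.1% of all genes). It gave 4 after orchiectomy in intermittent hypoxia and 0 in the 3 other contrasts. With 4 or 5 livers a group and 1 group of 4, single libraries decide calls near the threshold. The cause of these differences was not tested.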
